A study of Homo sapiens with 32 samples.

Results

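The response of PC-3 cells to 24 h of 4-hydroperoxycyclophosphamide was examined on 5 of the 32 Illumina bead arrays of the series, chosen by the time and treatment in the array titles. PC-3 is an established human prostate adenocarcinoma line that lacks functional p53. The 5 arrays are 2 of cells given 5.5 µM of 4-hydroperoxycyclophosphamide for 24 h, called active, and 3 of vehicle cells of the same experiment at 24 h. They belong to an experiment of 16 arrays that also held active cells at 10 h (2 arrays) and 48 h (3 arrays) with 3 vehicle arrays at each time. For one comparison, 3 arrays of cells given cyclophosphamide, called inactive, for 24 h and 3 arrays of their own vehicle cells were used. All groups share the medium, RPMI-1640 with fetal bovine serum, and no group carries a genetic change. Nothing in the labels tells whether the arrays within a group are separate cultures. The p-values here therefore reflect array-to-array spread only, which may be technical.

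Cyclophosphamide is a prodrug that liver enzymes oxidise, and its hydroperoxy derivative breaks down in water to the hydroxylated metabolite that yields the DNA-alkylating mustard and acrolein. Cells meet amino acid shortage, misfolded proteins or oxidative damage with kinases that phosphorylate the initiation factor eIF2, which slows translation in general while ATF4, a transcription factor, is made. ATF4 then switches on stress factors such as ATF3 and CHOP together with genes of amino acid synthesis and transport, a program called the integrated stress response. Alkylated DNA separately slows replication, and histone mRNAs of the replication-dependent genes are made and kept only while DNA is being copied.

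Each array reported 20589 probes, and the 75th percentile of raw intensity was between 430.9 and 592.4 on the 5 arrays. After a filter on dim probes, 10566 genes were tested with limma in a fit of the experiment's 16 arrays, in which the median residual SD was 0.12 log2 units. Of the epithelial markers, 5 of 6 passed the filter, among them KRT18 and EPCAM, while CDH1 did not. The prostate luminal markers KLK3 and ACP3 were below the filter, and TMPRSS2, the only luminal marker that passed, was at 0.13 (adjusted p = 0.739). Of the markers of other cell types, COL1A1 of fibroblasts, PTPRC and CD68 of leukocytes, and PECAM1 and TIE1 of endothelium passed. None of the markers was called. One array stood apart for 1 epithelial gene. KRT7, a keratin, had a raw intensity of 7.7 on active replicate 1, the lowest value of that array, against 523.8 to 929.2 on the other 15 arrays of the experiment. Its log2 change of -1.93 did not pass (SE 0.62, adjusted p = 0.136). The change was 0.07 without that array and -3.94 without active replicate 2. Under median scaling and with the authors' deposited log2 values, KRT7 was called lower.

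At 24 h, 182 of the 10566 genes were called at an adjusted p below 0.05, which is 1.72%, 108 of them (1.02%) higher and 74 (0.7%) lower in active cells. The active and vehicle arrays did not overlap for any of the 182, while 3198 genes, or 30.3%, did not overlap among all tested. The higher genes had a median log2 change of 0.57 and reached 3.14, with 16 of them above 1. The lower genes had a median of -0.47 and reached -0.79, with 0 beyond -1. Cytokines and factors of the integrated stress response made up 8 of the 15 genes with the largest rise, and core histones 6 of the 15 with the largest fall. The number called was 41 without active replicate 1, 76 without active replicate 2 and 105 without vehicle replicate 1. Median scaling instead of quantile normalization gave 80, of which 77.5% were higher against 59.3%, and the count was 107 without the filter on dim probes, 91 with the 5 arrays fitted alone and 16 when all 32 arrays of the series were normalized and fitted together. Of the lists described here, cytokines held 3 calls in that fit, stress factors 3, amino acid genes 0 and NRF2 targets 1. That fit had no weights for the experiments. In a 32-array fit with such weights, limma gave the active effects of GDF15, CXCL8 and CDKN1A adjusted p = 0.000112, 0.00941 and 6.23e-05. TRIB3 and H2BC11 had adjusted p = 0.00158 and 0.000605, and TNFRSF6B 0.251. All of these had lost the call without the weights. Of the 58 called genes that a fixed rule named, 29 lost the call without active replicate 1 (HMOX1, RELB, DNAJB9, MYC, PRDM1, NOG, KIF20A and CDCA7 among them), 18 without active replicate 2, and 8, 9 and 13 without vehicle replicates 1, 2 and 3.

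**Figure D1:**
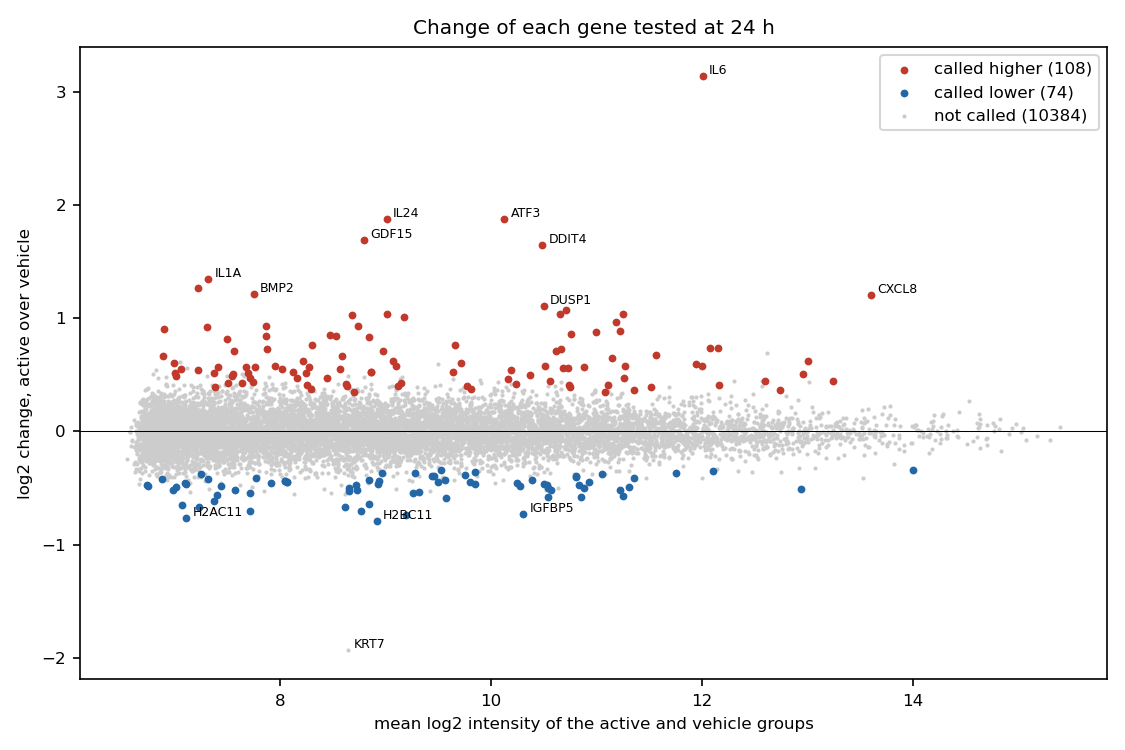
The log2 change of each of the 10566 genes at 24 h (active over vehicle) against its mean log2 intensity over the 2 groups, with the 108 genes called higher in red, the 74 called lower in blue and the rest in grey. IL6 lies alone at 3.14, and the genes called lower reach -0.79, while KRT7 lies at -1.93 through 1 array and was not called.

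The promoters of 6 of the called genes are shown first, since some members of each of 3 groups that moved together hold the same short motif. The sequences are 300 bases around the annotated gene start, from RefSeq (GRCh38.p14), each 5′ to 3′ on the strand of its gene. In ATF3, CHAC1 and ASNS the capitals mark a match to TGATGNAA, the core of the amino acid response element bound by ATF4 dimers. In IL6 they mark a match to the NF-kB motif, and in H2BC11 and H2BC8 to ATTTGCAT, the octamer of histone H2B promoters. Positions are counted from the gene start. The matches lie at -191 to -184 in ATF3, -209 to -202 in CHAC1 (on the opposite strand), -68 to -61 in ASNS, -73 to -64 in IL6, -47 to -40 in H2BC11 and -48 to -41 in H2BC8.
ATF3, chr1:212565157-212565456, plus strand: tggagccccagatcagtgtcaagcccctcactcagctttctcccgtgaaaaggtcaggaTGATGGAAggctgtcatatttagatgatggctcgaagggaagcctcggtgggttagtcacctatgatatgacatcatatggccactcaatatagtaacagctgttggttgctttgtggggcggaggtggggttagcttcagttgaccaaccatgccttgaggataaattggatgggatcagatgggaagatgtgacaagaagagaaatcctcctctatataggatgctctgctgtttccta
CHAC1, chr15:40953221-40953520, plus strand: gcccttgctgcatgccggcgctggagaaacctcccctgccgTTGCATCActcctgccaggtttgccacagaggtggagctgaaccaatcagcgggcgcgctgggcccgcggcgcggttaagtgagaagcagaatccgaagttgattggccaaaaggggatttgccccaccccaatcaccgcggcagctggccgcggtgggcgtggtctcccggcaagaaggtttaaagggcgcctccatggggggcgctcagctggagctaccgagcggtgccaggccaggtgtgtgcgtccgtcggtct
ASNS, chr7:97872359-97872658, minus strand: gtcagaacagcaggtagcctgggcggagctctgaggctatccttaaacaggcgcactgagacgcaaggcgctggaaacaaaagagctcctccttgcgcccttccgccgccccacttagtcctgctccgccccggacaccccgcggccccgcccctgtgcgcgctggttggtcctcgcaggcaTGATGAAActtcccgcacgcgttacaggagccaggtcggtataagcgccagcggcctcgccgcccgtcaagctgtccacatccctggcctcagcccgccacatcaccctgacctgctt
IL6, chr7:22726950-22727249, plus strand: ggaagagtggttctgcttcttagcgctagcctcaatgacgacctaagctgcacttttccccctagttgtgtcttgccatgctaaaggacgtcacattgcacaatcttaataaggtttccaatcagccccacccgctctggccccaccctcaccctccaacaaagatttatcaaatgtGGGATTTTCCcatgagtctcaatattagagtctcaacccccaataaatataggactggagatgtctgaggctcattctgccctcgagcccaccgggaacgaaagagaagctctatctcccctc
H2BC11, chr6:27132746-27133045, minus strand: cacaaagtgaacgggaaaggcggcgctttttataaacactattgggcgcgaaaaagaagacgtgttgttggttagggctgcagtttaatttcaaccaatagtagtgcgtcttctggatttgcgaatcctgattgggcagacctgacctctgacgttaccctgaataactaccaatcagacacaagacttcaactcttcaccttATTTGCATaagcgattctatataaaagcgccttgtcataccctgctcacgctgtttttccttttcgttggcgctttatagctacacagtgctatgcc
H2BC8, chr6:26216639-26216938, minus strand: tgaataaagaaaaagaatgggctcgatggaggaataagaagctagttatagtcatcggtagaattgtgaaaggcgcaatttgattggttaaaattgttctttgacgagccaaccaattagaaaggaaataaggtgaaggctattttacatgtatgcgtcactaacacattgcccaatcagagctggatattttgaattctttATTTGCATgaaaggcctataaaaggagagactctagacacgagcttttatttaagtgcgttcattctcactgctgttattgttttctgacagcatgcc

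Both strands were searched, and 8782 of the 10566 genes tested had a promoter in the table. TGATGNAA was present in 4 of 16 matched promoters of the stress factors and amino acid genes called higher (ATF3, CHAC1, ASNS and SLC3A2), against 1.79% of the genes tested and 3.67% of all 27305 promoters. The NF-kB motif, searched as GGGRNNYYCC (R for A or G, Y for C or T), was present in 6 of the 10 cytokine genes called higher. The 6 are CCL20, CXCL1, CXCL2, CXCL6, GDF15 and IL6. The motif was present in 19.6% of the 92 matched genes called higher, 1143 of the 8782 matched genes tested and 10.8% of all promoters. Sites that depart from this pattern were not counted, so a gene without a match may still hold one. The AP-1 motif, TGANTCA, was present in CXCL8, IL11 and IL1A, and in 7.76% of all promoters. Also searched were TGACGTCA (CRE) and TGACNNNGC (ARE). CRE was present in 6.52% of matched genes called higher, 5.97% of those called lower and 3.23% of those tested. For ARE the shares were 14.1%, 14.9% and 15.1%. ATTTGCAT was present in 7 of the 11 histone genes called lower and in 9 of 18 matched histone genes that were not called, against 1.80% of all promoters. The windows of H2BC11 and H2AC11, both among the 7, share 253 bases, so the 7 are not all separate promoters. Judged by gene starts, other pairs on opposite strands lie as close together, among them H2BC21 and H2AC20, both among the 7. The same holds for H2BC8 with H2AC8 and H2AC6 with H2BC4. In each of these the first gene was called lower and the second was not, so shared sequence counts on both sides. Among genes not called, H2BC7 with H3C4 and H2BC17 with H2AC17 also lie as close. Shared bases of these pairs were not counted. A match describes the letters of the window and is no evidence of binding.

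Secreted cytokines and chemokines held the largest rise. Of 19 members tested, 10 rose and 0 fell, with a median of 0.70. Over all genes tested 1.02% rose and 0.7% fell, the background for the list counts at 24 h, and the median was -0.00. The 10 are IL6, IL24, GDF15, IL1A, CXCL8, CCL20, CXCL2, CXCL1, IL11 and CXCL6. IL6, an inflammatory cytokine that signals through gp130 and STAT3, had log2 intensities of 13.72 and 13.44 on the active arrays, against 10.35, 10.50 and 10.46 on the vehicle arrays. Both active arrays lay far above all vehicle arrays. The change was 8.83-fold (log2 3.14, SE 0.11, adjusted p = 2.03e-13). IL24, a secreted relative of IL-10, was at 9.97 and 9.94 in active cells and at 8.06, 8.12 and 8.04 in vehicle cells. It rose by 1.88 (SE 0.15, adjusted p = 2.26e-07), with arrays of each group close together. GDF15, a stress-induced member of the TGF-beta family, was at 9.60 and 9.70 in active cells and at 8.03, 7.76 and 8.07 in vehicle cells, a change of 1.69 (SE 0.17, adjusted p = 4.04e-06).

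IL1A, an alarmin cytokine that acts through the IL-1 receptor, was at 8.06 and 7.93 in active cells and at 6.47, 6.76 and 6.72 in vehicle cells, a change of 1.34 (SE 0.13, adjusted p = 3.56e-06). CXCL8, the neutrophil chemokine IL-8, was at 14.24 and 14.18 in active cells and at 12.70, 12.99 and 13.31 in vehicle cells, a change of 1.21 (SE 0.15, adjusted p = 5.81e-05). The other chemokines called rose too. CCL20, which draws CCR6-bearing lymphocytes, and CXCL2, CXCL1 and CXCL6, ligands of CXCR2, rose by 0.94, 0.92, 0.88 and 0.67, and IL11, another gp130 cytokine, rose by 0.73. CXCL2 was at 7.78 and 7.76 in active cells, while its vehicle arrays spread widely, with replicate 3 at 7.35 and replicate 2 at 6.70. IL1B was at 0.70 without passing (adjusted p = 0.0661), and the members with negative values were CXCL3 at -0.24 and CSF3 at -0.07.

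NF-kB subunits and targets moved in part. Of 19 tested, 3 rose (background 1.02%) and 0 fell (0.7%), with 18 above 0 and a median of 0.27. PTGS2, the inducible cyclooxygenase COX-2, was at 7.88 and 7.83 in active cells and at 6.72, 6.58 and 6.48 in vehicle cells, a change of 1.26 (SE 0.12, adjusted p = 3.27e-06). TNFAIP3, the ubiquitin-editing enzyme A20 that limits NF-kB signalling, was at 9.55 and 9.51 in active cells and at 8.50, 8.51 and 8.49 in vehicle cells, a change of 1.03 (SE 0.12, adjusted p = 1.63e-05). RELB, a subunit of the alternative pathway, rose by 0.50 (adjusted p = 0.00352). NFKB2, its partner, was at 0.33 (adjusted p = 0.167). NFKBIA, the classical inhibitor, was at 0.27 and ICAM1, an adhesion molecule, at -0.24, and neither passed.

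**Figure D2:**
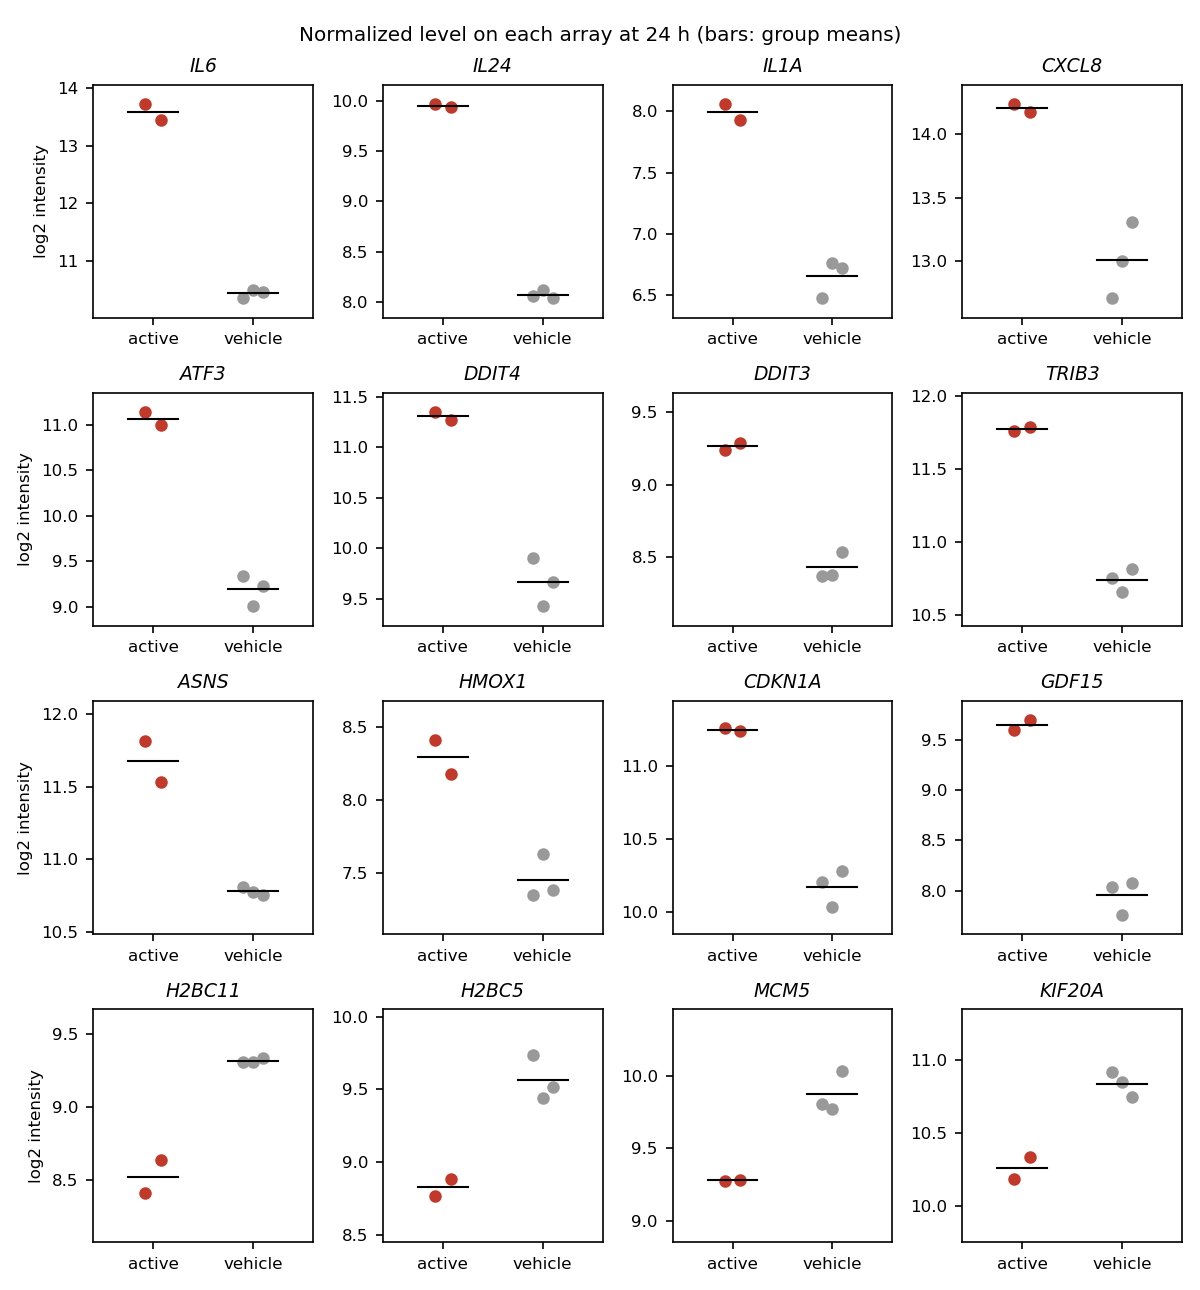
Normalized log2 intensity of 16 genes on each array at 24 h, with the 2 active arrays in red on the left, the 3 vehicle arrays in grey on the right and bars at the group means. The groups do not overlap in any panel, and the distance between them is widest for IL6, at 13.72 and 13.44 against 10.35 to 10.50.

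Factors of the integrated stress response rose in 9 of 18 cases (background 1.02%). None of the 18 tested fell, and the median was 0.50. ATF3, a stress-induced transcription factor, averaged 11.07 ± 0.10 in active cells (SD, n = 2) and 9.19 ± 0.17 in vehicle cells (SD, n = 3), with the lower active array above the highest vehicle array at 9.34. The change was 3.68-fold (log2 1.88, SE 0.12, adjusted p = 5.01e-09). DDIT4, an inhibitor of mTOR signalling also known as REDD1, was at 11.35 and 11.27 in active cells and at 9.91, 9.42 and 9.67 in vehicle cells, a change of 1.64 (SE 0.16, adjusted p = 4.04e-06). TRIB3, a pseudokinase that CHOP induces and that dampens ATF4, was at 11.76 and 11.79 in active cells and at 10.75, 10.65 and 10.81 in vehicle cells, a change of 1.04 (SE 0.13, adjusted p = 9.92e-05). DDIT3, the factor CHOP, was at 9.24 and 9.29 in active cells and at 8.37, 8.38 and 8.54 in vehicle cells, a change of 0.83 (adjusted p = 0.0001).

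PPP1R15A, the GADD34 subunit that directs phosphatase to eIF2, rose by 0.74 (SE 0.10, adjusted p = 9.92e-05). CHAC1, a glutathione-degrading enzyme, rose by 0.66, NUPR1, a stress-induced chromatin protein, by 0.71, CEBPB, a C/EBP factor, by 0.62 and NFIL3, a bZIP repressor, by 0.55. ATF4 itself was at 11.24 and 11.33 in active cells and at 11.09, 10.88 and 10.83 in vehicle cells. Its mRNA was at 0.36 and did not pass (adjusted p = 0.0881), as were CEBPG at 0.44 and XBP1 at 0.33. ATF4 activity is set mainly by translation, which these arrays do not measure. VEGFA, the angiogenic growth factor and a further member of the list, was at 0.17 (adjusted p = 0.544).

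Of 19 tested genes of amino acid synthesis and transport that ATF4 controls, 9 rose (background 1.02%) and 0 fell (0.7%). All 19 were above 0 and the median was 0.44. The 9 calls became 2 without active replicate 1 or without active replicate 2, 5 without vehicle replicate 1 or 2, and 4 under median scaling, with the median at 0.37 or above in these fits. ASNS, asparagine synthetase, was at 11.82 and 11.53 in active cells and at 10.81, 10.78 and 10.76 in vehicle cells, a change of 0.89 (SE 0.12, adjusted p = 9.92e-05). CBS and CTH, the enzymes of the transsulfuration route to cysteine, rose by 0.84 (adjusted p = 0.000589) and 0.47 (adjusted p = 0.0113), with another probe of CTH at 0.206. SLC7A11 and SLC3A2, the subunits of the cystine importer, rose by 0.57 and 0.56. PHGDH and PSAT1, the enzymes at the start of serine synthesis, rose by 0.45 each, and MTHFD2, of mitochondrial folate metabolism, by 0.50. SLC6A9, a glycine transporter, rose by 0.47, while another of its probes had the opposite sign. Of 19 cytosolic aminoacyl-tRNA synthetases, 2 rose (background 1.02%), GARS1 by 0.51 and AARS1 by 0.36, and the median was 0.19. Neither was called without active replicate 1. WARS1 and YARS1 were at 0.32 and 0.30 without passing.

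Chaperones of the endoplasmic reticulum, which the ATF6 and IRE1 branches of the unfolded protein response induce, did not move as a group. Of 17 tested, 1 rose (background 1.02%) and 0 fell (0.7%), with a median of -0.05. DNAJB9, the BiP cochaperone ERdj4, rose by 0.62 (SE 0.11, adjusted p = 0.00352). HSPA5, the chaperone BiP, was at 10.19 and 10.27 in active cells and at 10.31, 10.27 and 10.24 in vehicle cells, a difference of -0.04 (adjusted p = 0.900). DNAJC3 and SEL1L were at 0.14 each and PDIA4 at -0.11. All 17 cytosolic heat shock proteins tested were below 0, with a median of -0.11, and 0 passed, against 1.72% of all genes. HSPA4, BAG3 and HSPA1B were at -0.53, -0.41 and -0.32 (adjusted p = 0.112, 0.1 and 0.1).

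NRF2 is a transcription factor that its inhibitor KEAP1 releases when electrophiles or oxidants modify KEAP1. Of 24 NRF2 targets tested, 6 rose (background 1.02%) and 0 fell (0.7%), with a median of 0.26. The 6 calls became 1 without active replicate 1, 2 without active replicate 2 and 3 under median scaling. AKR1B10, an aldo-keto reductase, was at 8.74 and 9.06 in active cells and at 7.98, 8.13 and 8.04 in vehicle cells, a change of 0.86 (SE 0.11, adjusted p = 0.0001). HMOX1, haem oxygenase, was at 8.41 and 8.18 in active cells and at 7.34, 7.63 and 7.38 in vehicle cells, a change of 0.84 (SE 0.14, adjusted p = 0.00224). SQSTM1, the autophagy receptor p62, SLC7A11, UGDH, which makes UDP-glucuronic acid, and GCLM, the modifier subunit of glutamate-cysteine ligase, rose by 0.57, 0.57, 0.52 and 0.47. NQO1, a quinone reductase, was at 0.31 and TXNRD1, thioredoxin reductase, at 0.25, and neither passed. SLC7A11 is also counted among the ATF4 targets.

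**Figure D3:**
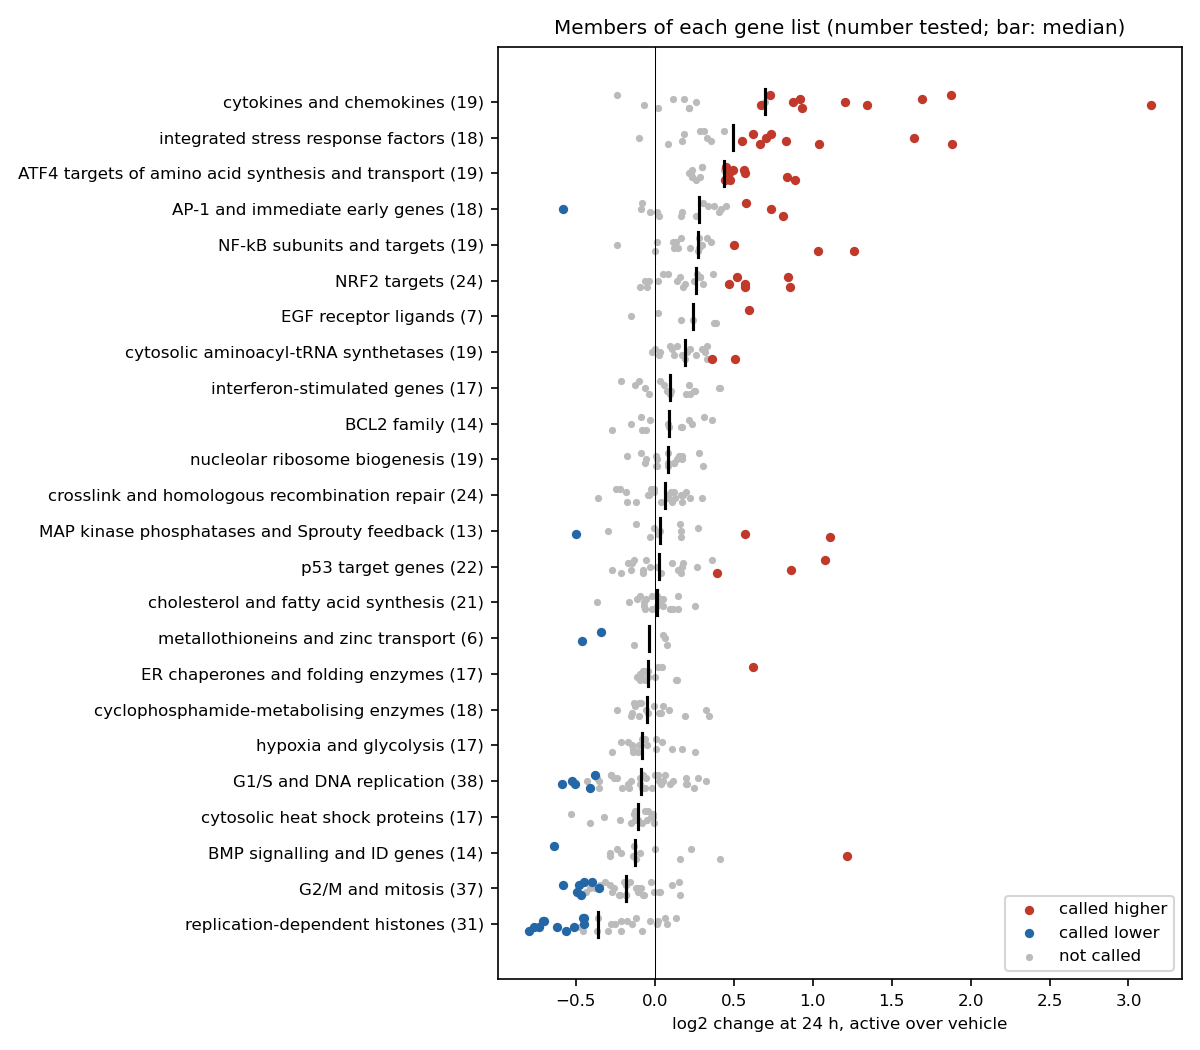
The log2 change at 24 h (active over vehicle) of each tested member of the 24 gene lists, called higher in red, called lower in blue and not called in grey, with a bar at each list's median and the number tested in brackets. Among members past the filter, cytokines (median 0.70), stress factors (0.50) and amino acid genes (0.44) lie highest, and replication-dependent histones (-0.36) lowest. Without the filter these medians were 0.29, 0.39, 0.44 and -0.17, in that order.

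Immediate early genes were mixed, against a background of 1.02% higher and 0.7% lower. Of 18 AP-1 and immediate early genes, 3 rose, PRDM1, KLF6 and MYC by 0.81, 0.74 and 0.58 (KLF6 alone without active replicate 1), and 1 fell, CCN2, the matricellular growth factor CTGF, by 0.58 (adjusted p = 0.002). Another probe of PRDM1 was at 0.11. PRDM1 and KLF6 are zinc-finger transcription factors and MYC drives growth genes. JUN was at -0.09 and EGR1 at 0.37 without passing, and FOS, FOSB and JUNB were below the filter. DUSP1, a phosphatase that switches off p38 and JNK, was at 11.16 and 10.95 in active cells and at 9.77, 10.03 and 10.03 in vehicle cells. It rose by 1.11 (SE 0.12, adjusted p = 1.19e-05), DUSP10, of like function, rose by 0.57, and SPRY1, an inhibitor of receptor tyrosine kinase signalling, fell by 0.50. SPRY1 lost its call with each of the 5 arrays left out in turn and under median scaling. Of 14 genes of BMP signalling, BMP2, a ligand, was at 8.41 and 8.31 in active cells and at 7.18, 7.34 and 6.92 in vehicle cells, a change of 1.21 (SE 0.13, adjusted p = 1.47e-05). NOG, the secreted antagonist noggin, fell by 0.64 (adjusted p = 0.00291).

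Genes of the DNA damage response changed in part. Of 22 p53 target genes, 3 rose (background 1.02%) and 0 fell (0.7%). Their median was 0.02, in a line without functional p53. CDKN1A encodes p21, an inhibitor of cyclin-dependent kinases. It was at 11.26 and 11.24 in active cells and at 10.21, 10.03 and 10.28 in vehicle cells, a change of 1.08 (SE 0.12, adjusted p = 1.47e-05). GADD45A, a growth arrest protein that other stress pathways also induce, was at 11.17 and 11.20 in active cells and at 10.37, 10.22 and 10.39 in vehicle cells, a change of 0.86 (SE 0.09, adjusted p = 9.71e-06). AEN, an exonuclease, rose by 0.39 (adjusted p = 0.0426), a call that was lost with each array left out in turn. PMAIP1, the BH3-only protein NOXA, was at 0.36, and BAX at -0.15, without passing. Of 24 genes of crosslink and recombination repair, 18 enzymes of cyclophosphamide metabolism and 14 of the BCL2 family, 0 were called by limma, with SLX4, a nuclease scaffold, at -0.36 (adjusted p = 0.130) and ALDH3A1, an aldehyde dehydrogenase that inactivates aldophosphamide, at 0.33 (adjusted p = 0.314). Lists of cholesterol synthesis (21 tested), interferon-stimulated genes (17), hypoxia (17) and nucleolar ribosome biogenesis (19) also held 0 called genes. The closest of them was MX1, an interferon-induced GTPase, at 0.40 (adjusted p = 0.0626). Of all genes tested 1.72% were called, so 0 calls in lists of these sizes lie near that share.

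Replication-dependent histones held the 3 largest falls among the genes called. Of 31 members tested (25 more were below the filter), 0 rose (background 1.02%) and 11 fell (0.7%), with a median of -0.36. The 11 calls became 4 without active replicate 1 or 2, and 6 without vehicle replicate 1. H2BC11 was at 8.41 and 8.63 in active cells and at 9.31, 9.31 and 9.33 in vehicle cells. The active arrays lay below all vehicle arrays, a change of -0.79 (SE 0.11, adjusted p = 0.000152). H2AC11 was at 6.75 and 6.70 in active cells and at 7.75, 7.57 and 7.16 in vehicle cells, a change of -0.77 (SE 0.15, adjusted p = 0.00997). H2AC11 lost its call without vehicle replicate 1, without either active replicate and with all 32 arrays fitted together without weights. Its change ran over -1.02 to -0.57 over all settings. H2BC5 was at 8.77 and 8.89 in active cells and at 9.73, 9.44 and 9.52 in vehicle cells, a change of -0.74 (SE 0.10, adjusted p = 0.00014). H2AC6, H2BC8 and H3C3 fell by 0.71, 0.70 and 0.62, and H3C10, H2BC12, H4C5, H2AC20 and H2BC21 fell by between 0.56 and 0.45. The 11 therefore cover H2A, H2B, H3 and H4, with 5 of them H2B genes. H2BC11 and H2AC11 start 247 bases apart on opposite strands and share a promoter region, of which the windows have 253 bases in common. Histone genes are close copies of each other, so a probe may read several of them, and the values of single members are uncertain.

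Genes of cell division and replication fell in part. Of 38 G1/S and DNA replication genes, 0 rose (background 1.02%) and 5 fell (0.7%), with a median of -0.09. MCM5, a helicase subunit, was at 9.28 and 9.28 in active cells and at 9.81, 9.77 and 10.03 in vehicle cells, a change of -0.59 (SE 0.12, adjusted p = 0.0126). UNG, uracil glycosylase, PCNA, the sliding clamp, GINS2 and MCM3, further helicase subunits, fell by 0.52, 0.50, 0.41 and 0.38, of which GINS2 was not called with any 1 of the 5 arrays left out. MCM2 was at -0.09 (adjusted p = 0.746). Of 37 G2/M and mitosis genes, 0 rose (background 1.02%) and 7 fell (0.7%), with a median of -0.18. KIF20A, a kinesin of cytokinesis, was at 10.18 and 10.33 in active cells and at 10.91, 10.85 and 10.74 in vehicle cells, a change of -0.58 (SE 0.10, adjusted p = 0.00352). DLGAP5, BUB1, HMMR, PLK1, GPSM2 and PTTG1, proteins of the spindle, its checkpoint and its kinases, fell by between 0.49 and 0.35, and CCNB1, cyclin B1, was at -0.11 (adjusted p = 0.750). Fewer dividing cells and less RNA per cell cannot be told apart in these bulk samples. Under median scaling 1 gene of each list and 7 histone genes were called. With all 32 arrays fitted together without weights, 0 of each list and 1 histone gene were. Without active replicate 1, 0 genes of each list were called. The G1/S calls were 0 without active replicate 2 and 3, 2 and 1 without vehicle replicates 1, 2 and 3, and the G2/M calls were 4 without active replicate 2 and 4, 5 and 3 without those vehicle arrays.

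Among genes in no list, CLDN1, a tight junction protein, was at 11.24 and 11.10 in active cells and at 9.98, 10.20 and 10.22 in vehicle cells, a change of 1.04 (SE 0.12, adjusted p = 1.81e-05). KRT34, a hair keratin, rose by 1.03 (adjusted p = 3.63e-05). IGFBP5, an IGF-binding protein, fell by 0.73 (adjusted p = 0.00784), TNFRSF6B, the decoy receptor DcR3 for FAS ligand, by 0.66, MAP2K6, a kinase that activates p38, by 0.65 and CDCA7, a MYC-responsive chromatin protein, by 0.57. OSGEPL1, a mitochondrial tRNA-modifying enzyme, fell by 0.66 (adjusted p = 0.00945). MAP2K6 lost its call without active replicate 2, without vehicle replicate 1 or 3 and with the 5 arrays fitted alone. OSGEPL1 lost its call without active replicate 2 or vehicle replicate 1, and IGFBP5 without active replicate 2. With all 32 arrays fitted together without weights, CLDN1, KRT34, IGFBP5, TNFRSF6B, MAP2K6, CDCA7 and OSGEPL1 were not called. Over all settings MAP2K6 ran over -0.89 to -0.42 and OSGEPL1 over -0.86 to -0.50. MT1G and MT2A, metal-binding metallothioneins, fell by 0.46 and 0.34 and were 2 of 6 members tested of their list (background 0.7%). MT1G kept its call in 3 of 9 alternative settings and 1 of 5 fits with an array left out, and MT2A in 5 of 10 and 0 of 5.

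The genes called at 24 h were set against those called at 10 and 48 h. In the same fit, calls numbered 117 at 10 h (1.11%, 31 higher and 86 lower) and 1013 at 48 h (9.59%, of which 522 or 4.94% were higher and 491 or 4.65% lower), each against vehicle arrays of its own time. Of the 108 genes higher at 24 h, 79 were also higher at 48 h, which is 73.1% of the 24 h and 15.1% of the 48 h genes, and 4 were higher at 10 h (3.70% and 12.9%). Of the 74 lower genes, 40 were also lower at 48 h (54.1% and 8.15%) and 9 at 10 h (12.2% and 10.5%). No gene was higher at 24 h and lower at 10 or 48 h, and 4 were lower at 24 h and higher at 48 h. The effect at 24 h minus the effect at 10 h was called for 62 genes (0.587%), 47 positive and 15 negative. The effect at 48 h minus that at 24 h was called for 35 genes (0.331%), 26 positive and 9 (0.0852%) negative.

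Several cytokines and stress factors had a larger effect at 24 h than at 10 h. IL6 had a mean of 11.73 in active and 11.54 in vehicle cells at 10 h, 13.58 and 10.44 at 24 h, and 12.26 and 9.76 at 48 h. Its level in vehicle cells thus was lower at each later time, and the active mean was highest at 24 h. Its effect was larger at 24 h than at 10 h by 2.96 (SE 0.16, adjusted p = 5.28e-10), and ATF3, DDIT4, IL24 and GDF15 had differences of 1.98, 1.79, 1.77 and 1.52. Of the cytokine, stress factor and amino acid lists, 0 members were called at 10 h (medians -0.03, -0.01 and 0.03), and 14, 10 and 13 rose at 48 h (background 4.94%).

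HMOX1, the NRF2 target with the largest rise at 10 h, ran the other way. It was at 11.39 in active and 7.64 in vehicle cells at 10 h, 8.29 and 7.45 at 24 h, and 7.70 and 7.25 at 48 h. Its effect fell to 0.84 at 24 h, against 3.75 at 10 h (difference -2.90, SE 0.20). GCLM had effects of 1.04, 0.47 and 0.18 at 10, 24 and 48 h, whereas AKR1B10 had 0.67, 0.86 and 0.68. In all, 7 NRF2 targets rose at 10 h (background 0.293%), 6 at 24 h (1.02%) and 7 at 48 h (4.94%). Mitotic genes fell at 10 h in 21 of 37 cases (background 0.814%), with a median of -0.57, and 13 fell at 48 h (4.65%). KIF20A had effects of -0.97, -0.58 and -0.31 at 10, 24 and 48 h, and CCNB1 had -0.80, -0.11 and -0.16.

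**Figure D4:**
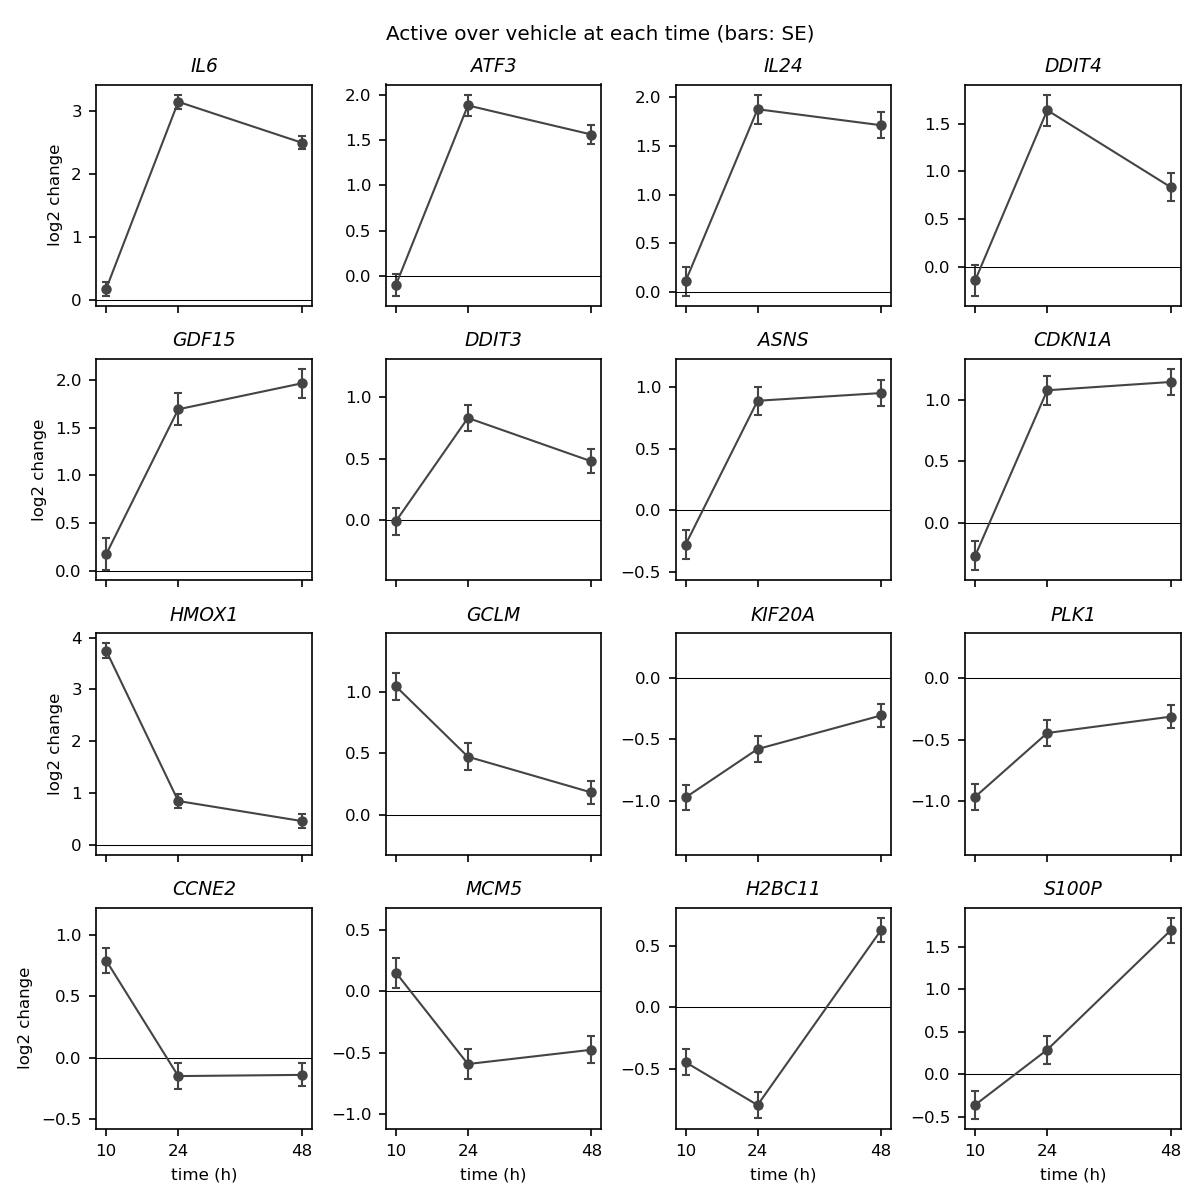
The log2 change (active over vehicle, each against vehicle arrays of its own time) of 16 genes at 10, 24 and 48 h, with bars of 1 SE. IL6 had effects of 0.18, 3.14 and 2.50, HMOX1 of 3.75, 0.84 and 0.46, and H2BC11 of -0.45, -0.79 and 0.63.

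Of the 31 histone genes, 10 had a called difference between the effects at 48 h and 24 h, 9 positive and 1 negative, and 4 were called lower at 24 h and higher at 48 h. H2BC11 was at 8.52 in active and 9.32 in vehicle cells at 24 h, and at 9.67 and 9.04 at 48 h. Its effect was -0.79 at 24 h and 0.63 at 48 h, a difference of 1.42 (SE 0.14, adjusted p = 4.02e-05). H2BC21, H2BC5, H4C8, H2AC6 and H2AC11 had differences of 1.26, 1.22, 1.21, 1.09 and 1.05. At 48 h, 6 histone genes were higher (background 4.94%) and 3 lower (4.65%). H4C3 had the negative difference, at -0.17 at 24 h and -0.78 at 48 h (difference -0.61, adjusted p = 0.0324). The other two lower genes at 48 h were H3C3, at -0.62 at 24 h and -0.38 at 48 h, and H4C12, at -0.51 without passing at 24 h and -0.72 at 48 h, and their differences were not called. Vehicle cells themselves differed over time in H2BC11, at 8.56, 9.32 and 9.04 at 10, 24 and 48 h, and the part of this in the differences was not tested. Outside the histones, S100P, a calcium-binding protein, KRTAP2-4, a keratin-associated protein, and RGS4, a G protein regulator, had differences of 1.41, 1.27 and 1.23 and were not called at 24 h.

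Each count of time differences depended on single arrays. Without active replicate 1, active replicate 2, vehicle replicate 1 or vehicle replicate 2 at 24 h, the 24 h minus 10 h difference was called for 22, 34, 38 or 34 genes. It was called for 32 genes without vehicle replicate 3 at 10 h, an array that lay nearer to the 24 h than to the 10 h arrays along the direction that separates them. Without active replicate 1 or 2, or vehicle replicate 1, 2 or 3 at 24 h, the 48 h minus 24 h difference was called for 8, 20, 19, 16 or 18 genes.

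**Figure D5:**
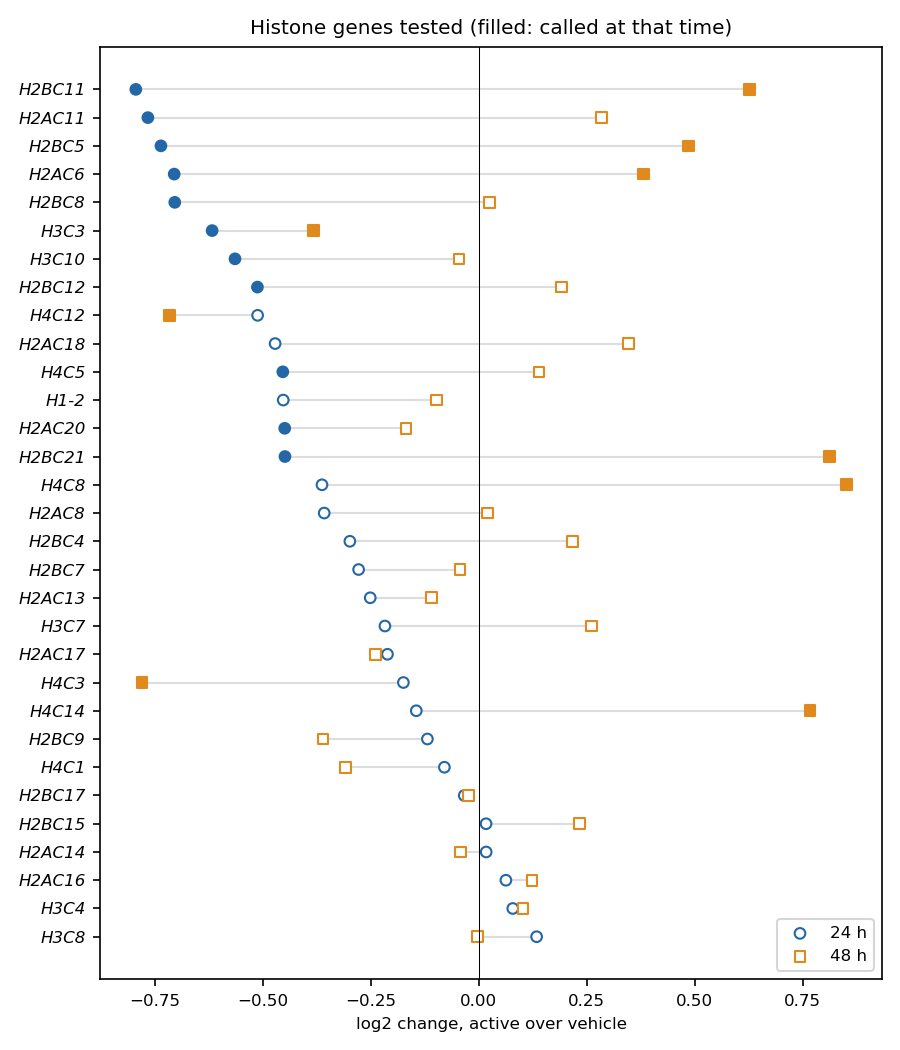
The log2 change (active over vehicle) of the 31 tested histone genes at 24 h (blue circles) and 48 h (orange squares), filled where the gene was called at that time, with a line joining the times of a gene. H2BC11, H2BC5, H2AC6 and H2BC21 were lower at 24 h and higher at 48 h, and H4C3 was lower at 48 h.

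The active and inactive compounds differ by the hydroperoxy group of the ring, and their effects at 24 h were set against each other as 1 pair, in a fit of all 32 arrays with a weight for each experiment. The dose of the inactive compound is uncertain, since the labels give 5.5 µM in a protocol for both while the design text ties it to the active compound. Each compound also had an experiment and vehicle arrays of its own, so compound and experiment cannot be told apart. The inactive compound had 0 called genes of 10598 by limma. The active minus inactive effect was called for 3 genes (0.0283%), all positive. ATF3 had an effect of 1.81 under the active and 0.11 under the inactive compound, a difference of 1.70 (95% interval 1.20 to 2.19, adjusted p = 0.000822). IL24 differed by 1.74 (1.09 to 2.39, adjusted p = 0.0319) and IL1A by 1.11 (0.68 to 1.53, adjusted p = 0.0319), with inactive effects of 0.00 and -0.01. Without the weights 2 genes were called, ATF3 (adjusted p = 0.00749) and BMP2 (a difference of 0.92, adjusted p = 0.0413), while IL24 and IL1A had adjusted p = 0.110 and 0.0551.

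IL6 differed by 2.91 (95% interval 1.68 to 4.15) without passing (adjusted p = 0.0797). GDF15, DDIT4 and TRIB3 had effects of 1.55, 1.59 and 1.01 under the active and 0.46, 0.62 and 0.42 under the inactive compound. Their differences were 1.09 (0.21 to 1.96), 0.97 (0.29 to 1.65) and 0.59 (-0.10 to 1.27), and none passed. In the inactive experiment, 4 of 12 arrays labelled 10 or 24 h, replicate 3 of each group, lay on the side of the other time, as did 1 of 10 in the active experiment. Without these 5 arrays 2 genes were called, ATF3 at 1.73 and IL6 at 3.05, and IL24 and IL1A were at 1.69 and 1.06 without passing. With single 24 h arrays left out the count was 9 without inactive replicate 1 and 1 without active replicate 1, vehicle replicate 1 or 3 of the active experiment, inactive replicate 2 or 3, or vehicle replicate 1 or 2 of the inactive experiment.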

How the data were processed

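Illumina bead arrays of PC-3 cells gave the deposited intensity values, linear and not normalized, and the authors' deposited log2 values of the same arrays, made with BeadStudio and R 2.12.0 per the submitters' processing notes. The normalization method and any detection p-values are not given in the sources used here. Intensities of the active experiment's 16 arrays were corrected with normexp (offset 50), quantile-normalized and log2-transformed, all in limma 3.58.1 (R 4.3.3). Of 20589 probes, 18332 had 1 gene symbol, 0 had several and 2257 were not listed. The upper 60% of probes by mean log2 entered the fit, each gene through its brightest probe; of 10 called genes with another probe, 2 disagreed in sign (NUDT6 and SLC6A9). One mean for each of 6 groups was fitted, and p-values from eBayes were adjusted by Benjamini-Hochberg at 5% over 10566 genes. The number of arrays limits the precision. The script was tested on simulated data.

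Named genes are the 15 largest changes each way among those called, up to 4 members of each list with the smallest p, 8 fixed genes and the 5 largest each way of the other comparisons; a few further list members are named beside their list. The members, the 24 gene lists and 5 marker lists were chosen with earlier results of these data known. Alternatives covered background, scaling, filter, prior, arrays fitted, the authors' values, title-letter runs as a block, array weights and single arrays left out.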

Additional observations from a re-analysis of the deposited data

Results flagged for a closer look

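The effect of the active compound differed between times or between compounds, by a test of the difference itself with limma, for the following genes. The effect at 24 h exceeded that at 10 h by 2.96 for IL6, 1.98 for ATF3, 1.79 for DDIT4, 1.77 for IL24 and 1.52 for GDF15. It was below that at 10 h for HMOX1 (-2.90), IGFBP5 (-1.08), OSGEPL1 (-1.02), FABP5 (-0.97), a fatty acid-binding protein, and CCNE2 (-0.94), cyclin E2. CCNE2 had effects of -0.15 at 24 h and 0.79 at 10 h.

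The effect at 48 h exceeded that at 24 h by 1.42 for H2BC11, 1.41 for S100P, 1.27 for KRTAP2-4, 1.26 for H2BC21 and 1.23 for RGS4. It was below that at 24 h for VASH2 (-0.91), INSIG1 (-0.82), a brake on sterol synthesis, AQP7 (-0.81), a glycerol channel, CBLN1 (-0.79) and FST (-0.75), follistatin, which binds activin. The active minus inactive effect at 24 h was 1.74 for IL24, 1.70 for ATF3 and 1.11 for IL1A. Groups of 2 or 3 arrays were too small for a test of outlying arrays.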

How the results depend on the processing

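With an offset of 16, the 24 h minus 10 h and 48 h minus 24 h differences were called for 33 and 17 genes, against 62 and 35. With median scaling the 24 h response and these differences gave 80, 27 and 15, and with no filter on dim probes 107, 35 and 19. With all 32 arrays together and no weights, the counts were 16, 2 and 2. The 5 arrays alone gave 91 for the 24 h response, and a trended and robust prior gave 102 for the 24 h minus 10 h difference. Leaving out 1 array gave 41 to 163 genes for the 24 h response, 22 to 42 and 8 to 36 for the time differences, and 1 to 9 for the compounds. The compounds gave 6 with each experiment normalized alone and 17 with the authors' deposited values. Title-letter runs as a replicate block gave 236 for the 24 h response, 70 and 60 for the time differences and 6 for the compounds. Deviations from the group means correlated weakly between active and vehicle arrays of the same run (over genes, 0.144 and 0.173). With the vehicle array of the remaining run the values were 0.024 and -0.024. The deviations of 2 active arrays mirror each other by construction, so these values are not separate comparisons and do not show a run effect. The labels do not call the runs batches. The cause was not tested for any of these.

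Of 58 named genes called, 10 kept the call under each alternative that tested them and with each array left out: IL6, ATF3, IL24, DDIT4, IL1A, PTGS2, BMP2, DUSP1, AKR1B10 and GADD45A. IL1A, PTGS2 and BMP2 were not among the upper 40% of probes and have no value there. Genes that were not called changed sign in 4 cases. With arrays left out in turn, KRT7 ran over -3.94 to 0.073, KRT8 over -0.30 to 0.099, SLC30A1 over -0.031 to 0.19 and TMPRSS2 over -0.012 to 0.27, with KRT7 and KRT8 above 0 without active replicate 1 and KRT8 without vehicle replicate 3 (0.019). Probe brightness over background could not be judged.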

Other observations

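Of the 108 genes called higher at 24 h, 59 belonged to none of the lists, and of the 74 called lower, 46. The genes here were chosen after their values were seen. EDN1, the vasoactive peptide endothelin, was at 9.75 and 9.61 in active cells and at 8.56, 8.61 and 8.84 in vehicle cells, a change of 1.01 (SE 0.10, adjusted p = 3.56e-06). PCK2, mitochondrial phosphoenolpyruvate carboxykinase, rose by 0.93 (another of its probes was at 0.305), and GABARAPL1, a protein of the autophagosome membrane, by 0.71. KMO and KYNU, enzymes of kynurenine metabolism, rose by 0.55 and 0.44, and KYNU was at 1.09 at 48 h. ULBP1 and PVR, ligands of receptors on natural killer cells, rose by 0.60 and 0.51, and were at 0.18 each at 48 h without passing. HLA-E, another such ligand, rose by 0.41, and CD55, which protects cells from complement, by 0.73.

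Among the lower genes, MSH6, of mismatch repair, was at 10.66 and 10.55 in active cells and at 11.06, 11.27 and 10.90 in vehicle cells, a change of -0.48 (SE 0.10, adjusted p = 0.0208). RMI1, a partner of the BLM helicase, fell by 0.53, INHBB, the activin beta B subunit, by 0.52 and KAT2B, the acetyltransferase PCAF, by 0.46. Adjusted p-values are from limma.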
